A study of Mus musculus with 4 samples.

Results

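Blood clotting and its reversal depend on a set of 34 genes examined here in mouse liver tumours and normal liver by bulk RNA sequencing. They were chosen by name, and all 34 were listed among the 25793 gene symbols of each count table. They fall into 24 genes whose proteins are made mainly by hepatocytes, 5 genes of the vessel wall and 5 genes of the tissue factor pathway with its protease-activated receptors. The 2 tumour libraries (tumours 1 and 2) are labelled as liver tumours of beta-2SP+/- ; SMAD3+/- mice, which are heterozygous for beta-2 spectrin, an adaptor of SMAD3, and for SMAD3, a transcription factor of TGF-beta signalling. The 2 normal libraries are labelled as normal liver, 1 of that same double heterozygous genotype and 1 of wild type. The labels give no age, sex or treatment, and do not say whether the tumours came from separate animals or how many animals each library holds. The p-values below therefore measure only the spread between these libraries.

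Gene counts per library were 11049931 in tumour 1, 13295216 in tumour 2, 15950426 in the normal double heterozygous table and 18448621 in the normal wild type table. The normal tables were closer to each other than separate libraries would be. Counts were identical in 56.8% of the 2632 genes that averaged 1 to 5 counts over both normal tables, against 29.3% calculated for independent libraries of these depths and 13.1% observed between the tumours over 2299 such genes. They differed by less than the sampling noise at low counts and were counted as 1 sample, their rounded mean, called normal liver below. The submitters' short descriptions, Elf-Tcell for tumour 1, Smad-Tcell for tumour 2, Smad-Hepatocytes and mHepatocyte for the normal libraries, differ from the genotype labels, and the tumours carry different prefixes there. That both tumours are of the double heterozygous genotype rests on the genotype label. Of 6 T cell markers, 5 were at 0 counts in both tumours, but of these Cd3d, Cd3g and Cd8a had only 1 or 2 in each normal table. Cd3e had 23 and 35 there and Cd4 13 and 12. The remaining marker, Lck, had 9 and 11 counts in tumours 1 and 2, against 5 and 8. The keratin genes of bile duct epithelium Krt7 (3500 and 3925 counts in tumours 1 and 2, against 6 and 8 in the normal tables) and Krt19 (9641 and 5757, against 43 and 46) rose. The other 2 of the 4 bile duct markers did not pass, Sox9 with 101 and 178 counts, against 15 and 16, and Epcam with 356 and 4, against 46 and 48, so that tumour 2 lay below the normal tables for Epcam.

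Clotting begins when tissue factor on a cell surface binds factor VII, and proceeds through a cascade of serine proteases to thrombin, which cuts fibrinogen into fibrin. Hepatocytes secrete most of the circulating zymogens, cofactors and inhibitors, and many of these need a vitamin K-dependent carboxylation before they can bind membranes. Endothelial cells supply von Willebrand factor, factor VIII and the receptors that turn thrombin to anticoagulant use. Plasmin, made from plasminogen by tissue-type or urokinase-type activators, dissolves the fibrin again.

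The tumours held few or no transcripts of 23 of the 24 hepatocyte-made clotting genes, at 0 to 106 counts each, and protein S was the exception. They held more transcripts than normal liver of Plat, for tissue-type plasminogen activator, and of F2rl1, for protease-activated receptor 2. All 34 genes passed the filter on low counts, but many of them only through the side on which they were abundant. Among these, 15 held under 10 counts over both tumours together and passed only through normal liver. Plat, Procr and F2rl1, with at most 6 counts in each normal table, passed only through the tumours. The numbers called below include such genes. By edgeR's quasi-likelihood test with Benjamini-Hochberg adjusted p under 0.05 over all genes, 23 of the 34 fell, against 5.19% of the 14468 genes tested (751 genes), and 2 rose, against 2.23% (322 genes); in either direction 7.42% of all genes were called. Without scaling factors the split over all genes was 472 lower and 635 higher, and that of the 34 was 23 and 4. The 24 hepatocyte-made genes gave 22 of the falls, the vascular genes 1 rise, and the tissue factor group 1 fall and 1 rise. The median log2 fold change was -13.56 for the hepatocyte-made genes (-12.66 with genes at 0 in both tumours set to their bound), 3.45 for the vascular genes and 3.26 for the tissue factor group, beside 0.19 for all genes tested.

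**Figure D1:**
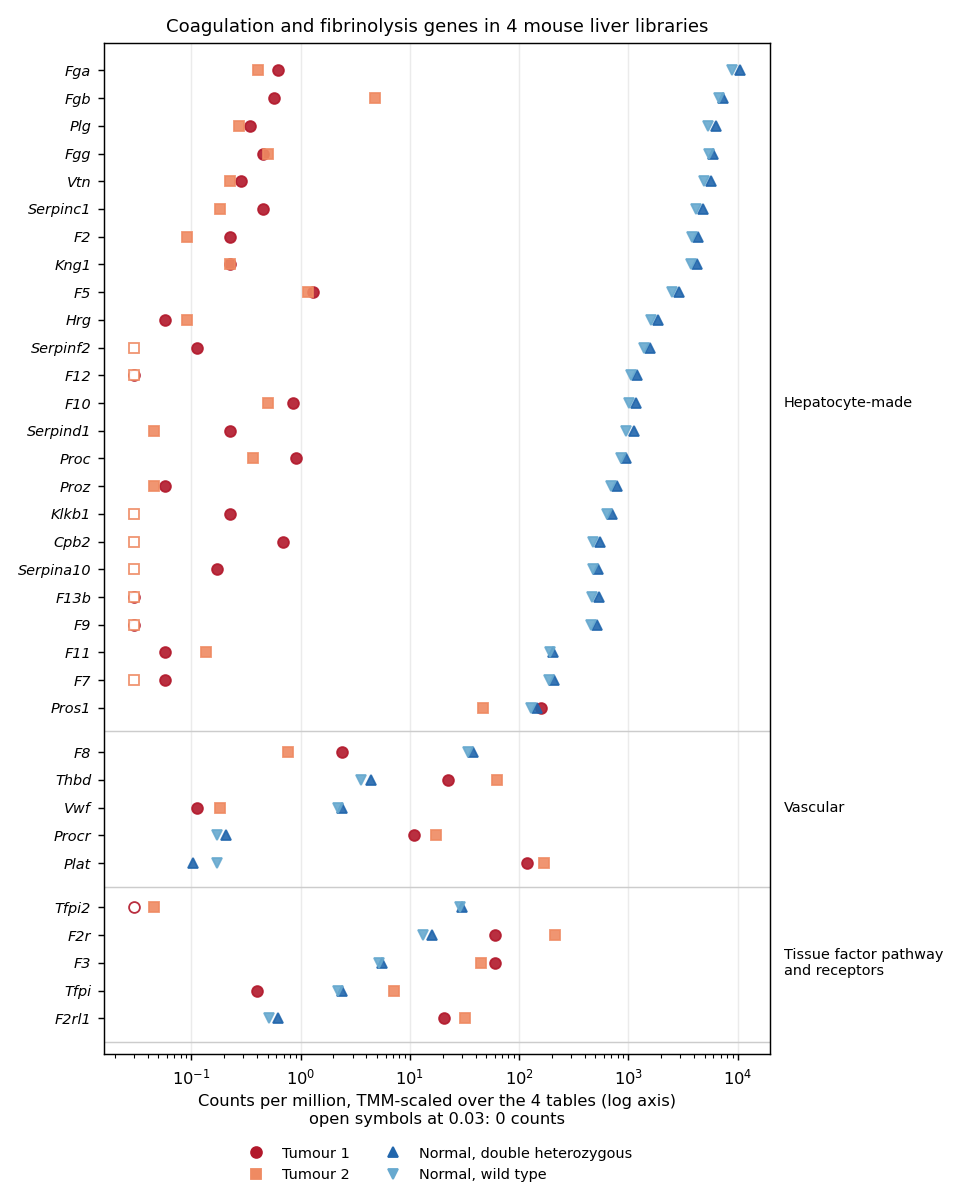
Level of each of the 34 genes in tumour 1, tumour 2 and the 2 normal tables, in CPM (counts scaled to a common library size) over the 4 tables on a log axis, 1 symbol per library and open symbols for 0 counts. All hepatocyte-made genes but Pros1 lie below 10 in both tumours and above 100 in both normal tables, while Plat, Procr, Thbd, F3, F2r and F2rl1 lie higher in both tumours.

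Fibrinogen, the substrate of thrombin, is built from 3 chains, and all 3 chain genes fell, against 5.19% of all genes tested. Fga, for the alpha chain, had 11 and 9 counts in tumours 1 and 2, against 101286 in the normal double heterozygous table and 104095 in the normal wild type table. Fgg, for the gamma chain, had 8 and 11 counts in the tumours, against 57709 and 64623 in the normal tables. Fgb, for the beta chain, had 10 and 106 counts in the tumours, against 70851 and 78153 in the normal tables. The groups were far apart for every chain, and Fgb was the chain on which the tumours differed most from each other. The log2 fold changes were -14.15 for Fga (SE 1.24, edgeR adjusted p = 0.0187), -13.51 for Fgg (SE 1.09, adjusted p = 0.0182) and -11.31 for Fgb (SE 1.78, adjusted p = 0.042). Together the chains took 0.000262% of all gene counts in tumour 1 (exact 95% binomial interval 0.000176 to 0.000377) and 0.000948% in tumour 2 (0.000789 to 0.00113), against 1.44% in the normal double heterozygous table and 1.34% in the normal wild type table. Such intervals cover counting error only.

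Among the 8 zymogen and cofactor genes, 8 fell, against 5.19% of all genes tested. Prothrombin, F2, had 4 and 2 counts in tumours 1 and 2, against 42107 and 44729 in the normal tables (log2 fold change -14.59, SE 1.20, edgeR adjusted p = 0.0182). F5, for the cofactor that speeds prothrombin cleavage, had 23 and 26 counts in the tumours, against 28174 and 29461 in the normal tables. F10, for the protease that cuts prothrombin, had 15 and 11 counts in the tumours, against 11348 and 11864 in the normal tables. These were the best detected of the zymogen and cofactor genes in the tumours, and their counts differed little between the 2 tumours.

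F7, for the zymogen that tissue factor binds, had 1 and 0 counts in the tumours, against 2021 and 2181 in the normal tables. Its ratio of normal liver to pooled tumours was 7709 (exact 95% interval from the counts, 1382 to 304634), wide because it rests on 1 tumour count. F11, for a zymogen that activates factor IX, had 1 and 3 counts in the tumours, against 1968 and 2242 in the normal tables (log2 fold change -10.83, SE 0.80, edgeR adjusted p = 0.0182). F9, F12 and F13b had 0 counts in both tumours. F9, whose human counterpart is the haemophilia B gene, had 4969 and 5277 counts in the normal tables and was at least 3093-fold lower in the tumours. F12, for the zymogen that starts the contact pathway, had 11413 and 12244 counts in the normal tables and was at least 7141-fold lower. F13b, for the carrier subunit of the fibrin cross-linking enzyme, had 5136 and 5397 counts in the normal tables and was at least 3179-fold lower. These bounds set each tumour library at a floor of 3 counts. The edgeR adjusted p was 0.0215 for F9 and F13b and 0.0221 for F12.

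The contact system genes Kng1 and Klkb1 fell as well. Kng1, for high molecular weight kininogen, had 4 and 5 counts in the tumours, against 41185 and 43522 in the normal tables (log2 fold change -14.03, SE 1.05, edgeR adjusted p = 0.0182). Klkb1, for plasma prekallikrein, had 4 and 0 counts, against 6828 and 7426 (-12.51, SE 1.54, adjusted p = 0.0278). Of the 31-mers of Kng1 27.6% and of those of Klkb1 40.3% also occur in another gene. Reads that did not align uniquely were left out of the gene counts, so that the levels of both genes are uncertain. The same holds for Serpinc1, at 38.1%. The other 31 genes shared under 10% of theirs.

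Among the 6 anticoagulant genes, 5 fell, against 5.19% of all genes tested. Serpinc1, for antithrombin, had 8 and 4 counts in tumours 1 and 2, against 45927 and 48589 in the normal tables. Serpind1, for heparin cofactor II, had 4 and 1 counts, against 10908 and 11175. Proc, for protein C, which switches off factors V and VIII, had 16 and 8 counts, against 9142 and 9927. These inhibitor genes were thus near the floor in the same tumour libraries as the procoagulant genes they oppose. Proz, for protein Z, had 1 count in each tumour, against 7504 and 8126 in the normal tables, and gave the smallest unadjusted p of the hepatocyte-made genes (log2 fold change -13.61, SE 0.85, edgeR adjusted p = 0.0182). Serpina10, for the inhibitor that uses protein Z as its cofactor, had 3 and 0 counts, against 5081 and 5507 (-12.48, SE 1.40, adjusted p = 0.0252).

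Pros1, for protein S, the cofactor of activated protein C, was the anticoagulant gene that did not pass. It had 2766 and 1036 counts in tumours 1 and 2, against 1408 and 1513 in the normal tables. Scaled, tumours 1 and 2 stood at 186 and 55.6 CPM, against 160 CPM for normal liver, so that tumour 1 lay above normal liver and tumour 2 below it. The log2 fold change was -0.40 (SE 0.87, edgeR adjusted p = 0.787), and it was 0.95 without scaling factors (adjusted p = 0.444, and up to 0.924 over the alternatives). Without tumour 1 the log2 ratio to normal liver was -1.52, and without tumour 2 it was 0.22. Pros1 is known to be expressed by endothelial cells and other cell types besides hepatocytes. Of the 8 endothelial markers Pecam1, Cdh5, Kdr, Tek, Emcn, Stab2, Lyve1 and Clec4g, 5 were at 0 in tumour 1 and 2 in tumour 2, and none exceeded 9 counts in either tumour. The cell source of the Pros1 counts was not tested. Pros1 held 2766 of the 2905 hepatocyte-made clotting counts of tumour 1 and 1036 of the 1236 of tumour 2.

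The fibrinolytic genes of the hepatocyte-made group were also low. Plg, for plasminogen, had 6 counts in each tumour, against 60482 and 63073 in the normal tables (log2 fold change -14.16, SE 1.12, edgeR adjusted p = 0.0182). Serpinf2, for alpha-2-antiplasmin, the main plasmin inhibitor, had 2 and 0 counts, against 15114 and 16174, and also fell (adjusted p = 0.0215). Cpb2, for a carboxypeptidase that protects fibrin from plasmin, had 12 and 0 counts, against 5298 and 5521. All its tumour counts came from tumour 1, and it did not pass the test (log2 fold change -10.55, SE 1.87, adjusted p = 0.0511, and 0.00341 to 0.0615 over the alternatives, with 0.0475 against the normal wild type table alone). Among the adhesive plasma proteins, Hrg, for histidine-rich glycoprotein, had 1 and 2 counts, against 17937 and 18902 (-14.33, SE 0.98, adjusted p = 0.0182). Vtn, for vitronectin, a cell adhesion protein of plasma, had 5 counts in each tumour, against 55161 and 57372 (-14.28, SE 1.11, adjusted p = 0.0182).

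**Figure D2:**
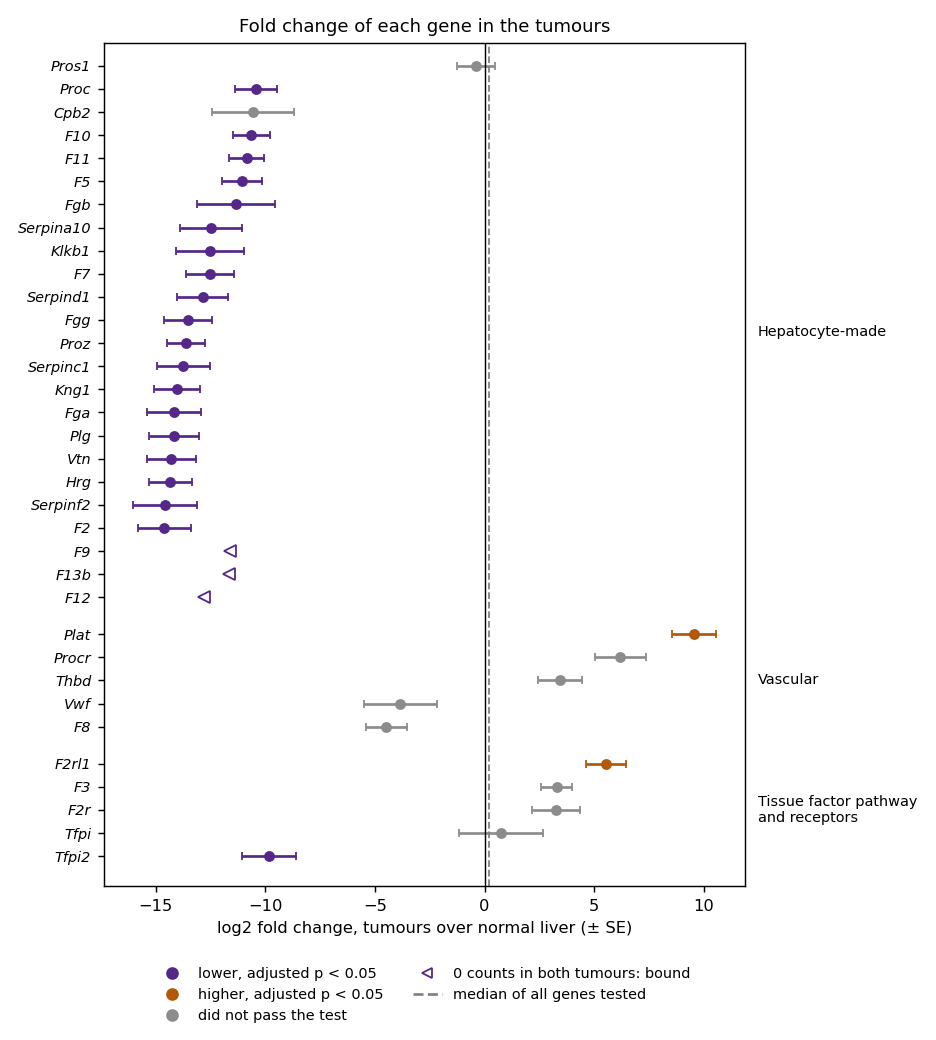
Fitted log2 fold change of each gene, tumours over normal liver, with its SE as bars; open triangles give the bound for genes with 0 counts in both tumours and the dashed line the median of all genes tested. Points left of -10 are all of hepatocyte-made genes, Pros1 sits at -0.40, and Plat and F2rl1 are the genes called higher.

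Bulk libraries cannot tell fewer hepatocytes from less RNA per hepatocyte, and this applies to all the falls above. The 7 hepatocyte markers moved with them: Alb, Ttr, Apoa1, Apoh, Tat, Cyp7a1 and Hnf4a took 0.0224% and 0.0216% of the counts in tumours 1 and 2, against 8.92% and 8.41% in the normal tables. Of these 7 markers, 6 fell, against 5.19% of all genes tested. Hnf4a, for a transcription factor of the hepatocyte, kept 2323 and 1991 counts in the tumours, against 11330 and 12038 in the normal tables (log2 fold change -3.28, SE 0.65, edgeR adjusted p = 0.0621). The part of the markers in the result was not tested.

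**Figure D3:**
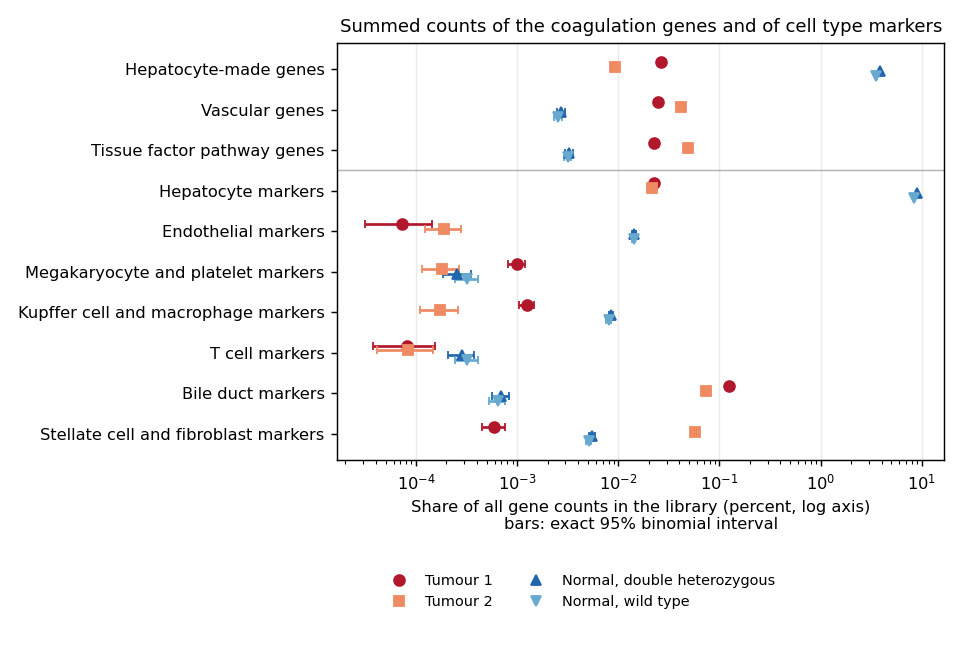
Summed counts of each coagulation gene group and of 7 cell type marker lists as a percent of all gene counts (log axis), 1 symbol per library with exact 95% binomial intervals. Hepatocyte-made genes were at 0.0263% and 0.0093% in tumours 1 and 2 against 3.88% and 3.56% in the normal tables. The vascular and tissue factor sums were higher in the tumours and the endothelial marker sum lower. Plat gave 2093 of the 2720 vascular counts in tumour 1 and 3740 of the 5530 in tumour 2. Of the members in these groups, F8, Vwf and Tfpi2 were lower in the tumours.

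In normal liver the hepatocyte-made genes spanned a wide range of levels per length. In CPM per kilobase of exon, Fga stood at 3738, Vtn at 3535, Fgg at 3202, Plg at 2455, F2 at 2393 and Fgb at 2142. All 3 fibrinogen chains, whose proteins join in equal numbers, were thus among the 6 highest. At the low end were F7 at 124, F11 at 103 and Pros1 at 48.4 CPM per kilobase. By counts, Fga ranked 19 and Fgb 25 among all listed genes in normal liver, and F11 ranked 1005. In the tumours every hepatocyte-made gene but Pros1 was at or below 1.49 CPM per kilobase, whatever its place in this order.

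Promoter sequence was examined because the hepatocyte-made genes moved together with Pros1 as the exception. RefSeq promoters were found for 26 of the 34 genes, among them 20 hepatocyte-made ones, and the 250 bases before the start were searched. Pros1 held 15 CpG dinucleotides there, against 0 to 9 in the other 19 hepatocyte-made genes (median 3) and a median of 6 in all 32851 promoters. In the tissue factor group F3 and F2r held 24 each, both Tfpi promoters 3, and the 3 promoters of Tfpi2, a gene that fell, 11, 2 and 1. No promoter was found for Plat or F2rl1, the members called higher, so the number of CpG could not be compared by direction of call. Among the vascular genes Procr held 13 and F8 2. The promoters of Fga and F12, which were near or at 0 in the tumours, are shown beside those of Pros1, F3 and F2r, which were not; each runs 5′ to 3′ on the gene's strand, from RefSeq on build GRCm38.p6, with CpG dinucleotides in capitals.
Fga, chr3:83025903-83026152, plus strand: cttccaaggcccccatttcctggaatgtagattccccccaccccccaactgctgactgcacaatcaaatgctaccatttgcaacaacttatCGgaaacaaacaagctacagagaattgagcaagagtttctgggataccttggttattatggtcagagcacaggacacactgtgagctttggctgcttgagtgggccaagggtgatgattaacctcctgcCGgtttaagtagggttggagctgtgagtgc
F12, chr13:55426805-55427054, minus strand: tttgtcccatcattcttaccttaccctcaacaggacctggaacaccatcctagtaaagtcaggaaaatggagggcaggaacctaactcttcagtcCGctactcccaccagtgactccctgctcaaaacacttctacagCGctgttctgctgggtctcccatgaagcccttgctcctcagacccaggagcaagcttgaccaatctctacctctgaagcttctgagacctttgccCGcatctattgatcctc
Pros1, chr16:62854057-62854306, plus strand: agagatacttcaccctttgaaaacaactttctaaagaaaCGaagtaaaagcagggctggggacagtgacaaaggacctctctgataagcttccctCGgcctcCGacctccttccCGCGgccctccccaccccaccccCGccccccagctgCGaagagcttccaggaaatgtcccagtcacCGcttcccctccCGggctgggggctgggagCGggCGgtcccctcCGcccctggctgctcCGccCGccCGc
F3, chr3:121723287-121723536, plus strand: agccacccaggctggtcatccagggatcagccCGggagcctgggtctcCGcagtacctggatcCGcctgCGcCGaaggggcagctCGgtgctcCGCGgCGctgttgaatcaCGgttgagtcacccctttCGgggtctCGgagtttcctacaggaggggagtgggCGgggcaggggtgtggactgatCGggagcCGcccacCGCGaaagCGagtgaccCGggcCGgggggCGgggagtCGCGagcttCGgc
F2r, chr13:95618467-95618716, minus strand: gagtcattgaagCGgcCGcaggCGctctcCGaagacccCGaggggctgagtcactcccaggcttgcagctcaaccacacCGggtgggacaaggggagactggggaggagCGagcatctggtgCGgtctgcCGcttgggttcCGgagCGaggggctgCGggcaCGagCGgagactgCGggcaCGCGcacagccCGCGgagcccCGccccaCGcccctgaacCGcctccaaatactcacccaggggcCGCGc
The capitals are sparse in Fga and F12, with 2 and 3 CpG, lie mostly toward the start in Pros1, and are spread over nearly the whole window in F3 and F2r. The half-site of the hepatocyte factor HNF1 (GTTAAT, both strands) was present in 5 of the 20 hepatocyte-made promoters, 25% against 6.43% of all promoters. In the tissue factor group it was present in 2 of the 7 promoters (28.6%), both of Tfpi2. These 2 windows overlap, and the matches, 177 and 99 bases before their starts, are the same site. In Fga the half-site lies 43 bases before the start. The letters TGANTCA (both strands) are looser than the AP-1 site, which has C or G in the middle. They occurred in 3 of the 20 hepatocyte-made promoters, 15% against 6.75% of all promoters, and in 3 of the 7 promoters of the tissue factor group (42.9%). Of the 2 vascular promoters, that of Procr held them, 154 bases before the start. The middle base was C in Fgb and Procr and G in F2r, but T in F2 and A in Hrg and Tfpi2. In F3 they lie 146 and 135 bases before the start, with A in the middle at 146 and G at 135. The letters TATAAA of the TATA box (both strands, anywhere in the window) occurred in 10% of the hepatocyte-made promoters, against 12.4% of all. They lie 132 bases before the start in Klkb1 and 137 and 135 in Vtn, not close to the start. These are matches of letters, and binding was not measured.

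**Figure D4:**
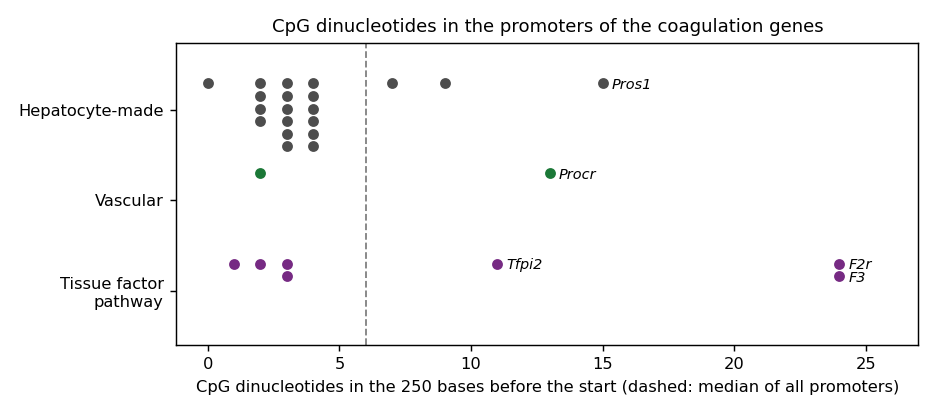
Number of CpG dinucleotides in the 250 bases before the start, 1 point per RefSeq promoter in each gene group (Tfpi and Tfpi2 have several), with the median of all promoters, 6, as a dashed line. Pros1, at 15, lies apart from the other hepatocyte-made genes, and F3 and F2r, at 24, lie farthest right.

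The vascular genes did not move as a group: 1 of 5 rose and 0 fell by edgeR over all genes, and at an unadjusted p under 0.05 the numbers were 3 higher and 1 lower, against 12.5% and 15.5% of all genes tested. DESeq2 called 4 of the 5, against 25% of all genes it tested. Plat, for tissue-type plasminogen activator, had 2093 and 3740 counts in tumours 1 and 2, against 1 and 2 in the normal tables. Its level was 171 ± 42.2 CPM in the tumours (SD, n = 2), against 0.219 CPM in normal liver. The log2 fold change was 9.55 (SE 0.99, edgeR adjusted p = 0.0225), and the ratio of pooled tumours to normal liver was 795 (exact 95% interval from the counts, 220 to 6565). It ranked 1139 among all genes in tumour 1 and 623 in tumour 2, against 14054 in normal liver. Plat was the largest rise among the 34 genes by fitted fold change.

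Procr, for the endothelial receptor of protein C, had 191 and 381 counts in the tumours, against 2 in each normal table. Its log2 fold change was 6.19 (SE 1.17, edgeR adjusted p = 0.0566), just outside the threshold, and adjusted p ran from 0.00023 to 0.0623 over the alternatives. Thbd, for thrombomodulin, which redirects thrombin to protein C, had 392 and 1388 counts, against 42 in each normal table (3.45, SE 1.01, adjusted p = 0.123). In both genes each tumour exceeded both normal tables, as in 40.8% of all genes tested, with tumour 2 the higher. Neither passed the test.

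F8, for the cofactor deficient in human haemophilia A, had 42 and 17 counts in the tumours, against 365 and 397 in the normal tables (log2 fold change -4.48, SE 0.93, edgeR adjusted p = 0.068). Vwf, for von Willebrand factor, which carries factor VIII in plasma, had 2 and 4 counts, against 23 and 26 (-3.84, SE 1.65, adjusted p = 0.22). Both tumours lay below both normal tables for F8 and Vwf, opposite in direction to Plat, Procr and Thbd. Of all genes tested, 37.7% were separated in the lower direction and 40.8% in the higher, and neither F8 nor Vwf passed. Summed endothelial markers were 8 and 25 counts in tumours 1 and 2, against 2282 and 2611 in the normal tables. Of these markers, 3 of the 7 tested fell, against 5.19% of all genes tested. Among them was the sinusoidal gene Stab2 (2 and 1 counts, against 933 and 1110). The part of endothelial cells in the F8 and Vwf values was not tested. Megakaryocyte and platelet markers, another source of Vwf, gave 109 and 24 counts in the tumours, against 41 and 59. They did not move together: Pf4 had 99 and 4 counts, against 4 and 4, and Itga2b 3 and 17, against 29 and 48.

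In the tissue factor group, F3, for tissue factor itself, had 1061 and 977 counts in tumours 1 and 2, against 54 and 61 in the normal tables. That was 61.9 ± 13.5 CPM in the tumours (SD, n = 2) and 6.35 CPM in normal liver. Tumour 1 was within 1.36-fold of tumour 2 and the groups did not overlap, but the log2 fold change of 3.28 (SE 0.69) missed the threshold with an edgeR adjusted p of 0.0703 (0.00128 to 0.0743 over the alternatives). Both tumours were above both normal tables in 40.8% of all genes tested and below them in 37.7%, so that such a separation is common here. Among the 34 genes it was 6 above and 26 below, with Pros1 and Tfpi overlapping.

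Tfpi2, for a Kunitz-type inhibitor of plasmin and of the tissue factor complex, had 0 and 1 counts in the tumours, against 287 and 339 in the normal tables, and fell (log2 fold change -9.82, SE 1.24, edgeR adjusted p = 0.0287). On 1 tumour count, the ratio of normal liver to pooled tumours was 1148 (exact 95% interval from the counts, 205 to 45505). Tfpi, for the main inhibitor of the tissue factor complex, had 7 and 157 counts in the tumours, against 23 and 26 in the normal tables. At 0.471 and 8.42 CPM, against 2.63 CPM in normal liver, tumour 1 lay below and tumour 2 above (0.76, SE 1.93, adjusted p = 0.819). Without tumour 1 its log2 ratio to normal liver was 1.63, and without tumour 2 it was -2.13.

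Thrombin and tissue factor complexes signal to cells through protease-activated receptors. F2rl1, for protease-activated receptor 2, had 360 and 700 counts in tumours 1 and 2, against 6 in each normal table, and rose by 5.54 on the log2 scale (SE 0.93, edgeR adjusted p = 0.0467). Against the normal double heterozygous table alone the call was lost (adjusted p = 0.051, the highest of the alternatives, of which the lowest gave 8.85e-06). F2r, for the thrombin receptor, had 1057 and 4709 counts, against 153 and 154. With 71.2 and 253 CPM in tumours 1 and 2, against 16.9 CPM for normal liver, it did not pass (3.26, SE 1.09, adjusted p = 0.151). Both receptor genes were above normal liver in both tumours, F2r with the wider spread between tumours. The other receptors were barely detected, F2rl2 at 1 and 0 counts in the tumours against 0 and 0, and F2rl3 at 0 and 1 against 1 and 2.

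In the tumours the order of levels per length was thus another than in normal liver. In tumour 1 Pros1 (56.4 CPM per kilobase) and Plat (55.8) stood highest, followed by F3 (38.2) and F2r (21.3). In tumour 2 Plat (79.5) and F2r (75.7) stood highest, followed by F3 (28), Thbd (20) and Pros1 (16.8). In normal liver Plat was at 0.0868, Pros1 at 48.4, F2r at 5.06 and F3 at 3.39 CPM per kilobase. Thbd, F2rl1 and Procr lay between 7.09 and 20 CPM per kilobase in the tumours, against 0.137 to 1.24 in normal liver. Every other gene of the 34 was at or below 1.59 CPM per kilobase in both tumours.

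The tumours were then set against each other, without a test, since each is 1 library. Of the 34 genes, 7 reached 10 CPM in either tumour. Pros1 was 3.34-fold higher in tumour 1 than in tumour 2, against 11.9% of 9193 genes compared that were over 2-fold higher in tumour 1. F2r and Thbd were 3.55-fold and 2.82-fold lower in tumour 1, against 15.6% of genes over 2-fold lower. Plat, Procr, F3 and F2rl1 differed by less than 2-fold. Most stellate cell and fibroblast markers also differed, with Col1a1 at 30 and 3757 counts, Col3a1 at 14 and 2190 and Pdgfrb at 2 and 1527 in tumours 1 and 2. Dcn was at 19 and 154, below its 580 and 605 in the normal tables. Lrat was at 0 in both tumours, against 114 and 118. The part of these markers in the F2r and Thbd values was not tested.

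Between the normal tables, 27 of the 34 genes reached 10 CPM in either, and 0 of them differed over 2-fold, with log2 ratios of 0.04 to 0.27 for double heterozygous over wild type. Over all 8322 genes compared, 0.973% were over 2-fold higher and 3.44% lower in the double heterozygous table. With each normal table as its own group in 1 fit of the 4 libraries, 24 of the 34 fell and 1 rose against the normal double heterozygous table (5.69% lower and 2.19% higher of all genes, 7.87% in all), and 24 fell and 2 rose against the normal wild type table (6.62% and 3.07%, 9.7% in all). These contrasts share the tumour libraries and their normal tables share counts. Cpb2 passed in both, with edgeR adjusted p of 0.0457 and 0.0428, and F2rl1 passed against the wild type table (0.0432) but not against the double heterozygous table (0.0509).

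A wider list of 26 genes of the clotting and plasmin pathways was counted beside the 34. Of these, 23 could be tested, 4 fell and 2 rose, beside 5.19% and 2.23% of all genes, with a median log2 fold change of 0.27. The 7 genes of this list for plasminogen activation and its inhibitors lay above both normal tables in both tumours, and 2 of them rose. Such a separation was found in 40.8% of all genes tested. For Serpine2 it was narrow, with tumour 2 at 27.8 CPM, against 27 in the normal double heterozygous table. Plaur, for the urokinase receptor, had 1822 and 1205 counts in tumours 1 and 2, against 4 and 7 in the normal tables (log2 fold change 7.14, SE 1.00, edgeR adjusted p = 0.0346). Anxa2, for the annexin that with S100a10 docks plasminogen and its activator on cells, had 8689 and 14612 counts, against 79 and 84 (6.25, SE 0.91, adjusted p = 0.0367). The urokinase gene Plau, at 227 and 379 counts against 4 and 5, did not pass (adjusted p = 0.0594). The other members were the inhibitor genes Serpine2 and Serpinb2, beside S100a10 and 5033414D02Rik (an older name of Plgrkt). They had log2 fold changes of 1.46 to 3.70 and did not pass.

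**Figure D5:**
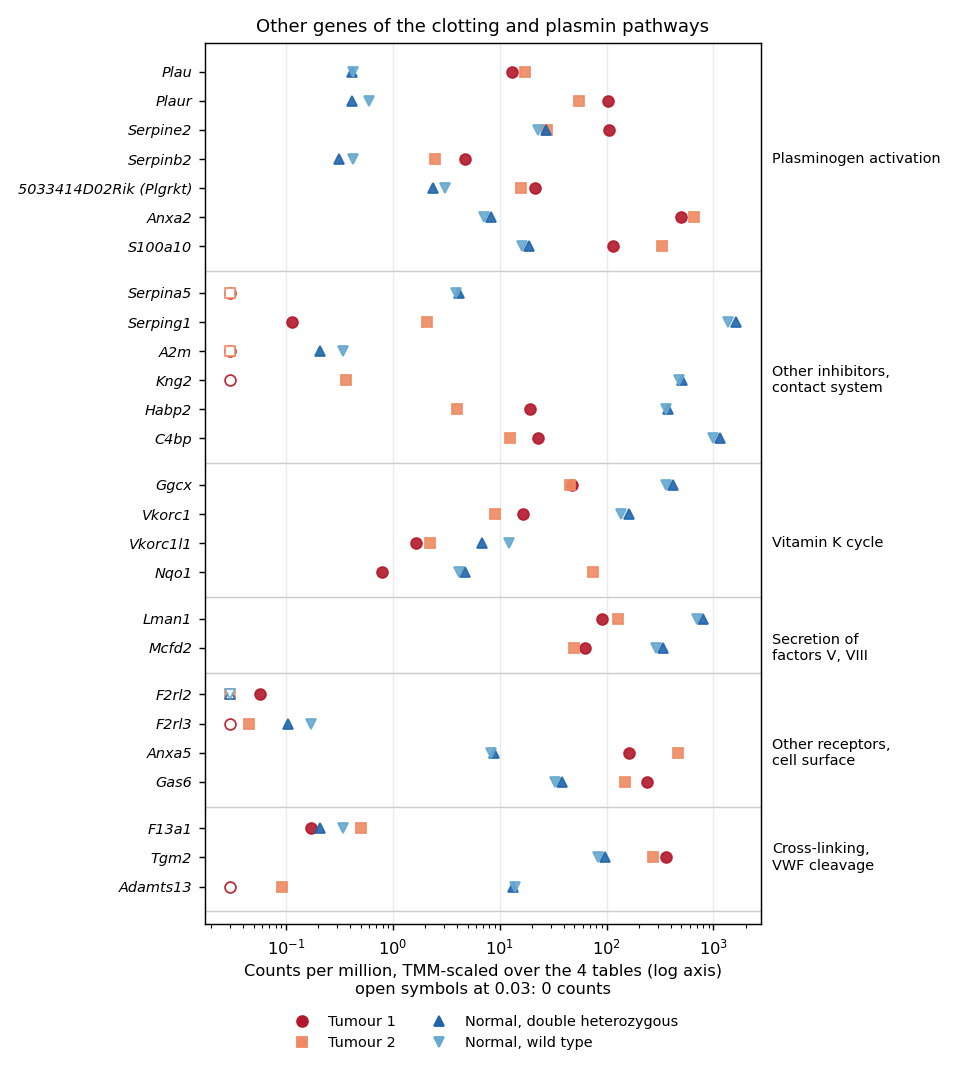
Level of 26 other pathway genes in tumour 1, tumour 2 and the 2 normal tables, in CPM scaled over the 4 tables on a log axis, with open symbols for 0 counts. The 7 genes of plasminogen activation and its inhibitors at the top lie to the right in both tumours, Serpine2 by little in tumour 2. The other inhibitor and contact system genes below them lie to the left.

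Among the 6 other inhibitor and contact system genes, 3 fell and 0 rose by edgeR; at an unadjusted p under 0.05, 5 were lower and 0 higher, against 15.5% and 12.5% of all genes tested. Serping1, for the C1 inhibitor, had 2 and 46 counts in tumours 1 and 2, against 15472 and 15989 in the normal tables (log2 fold change -10.34, SE 1.81, edgeR adjusted p = 0.0497). Kng2, a copy of the kininogen gene with 34.5% shared 31-mers, had 0 and 8 counts, against 4881 and 5546 (-11.24, SE 1.56, adjusted p = 0.0344). C4bp, for the complement regulator that binds protein S in human plasma, kept 396 and 275 counts, against 10975 and 11550, and fell (-5.90, SE 0.75, adjusted p = 0.0291). Serpina5 (0 counts in both tumours, against 40 and 46) and Habp2 did not pass, and A2m was too low to be tested. The call of Serping1 was lost without scaling factors (adjusted p = 0.0563, the highest of the alternatives, of which the lowest gave 2.11e-13) and against the normal double heterozygous table alone (adjusted p = 0.0523).

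Of 6 genes that process clotting factors inside the cell, 4 in the vitamin K cycle and 2 in secretion, 1 passed the test. In either direction 7.42% of all genes tested passed. Ggcx, for the vitamin K-dependent carboxylase, had 826 and 1005 counts in tumours 1 and 2, against 3987 and 4249 in the normal tables, and fell by 3.04 on the log2 scale (SE 0.53, edgeR adjusted p = 0.0497). Upper quartile scaling (adjusted p = 0.056) and no scaling factors (adjusted p = 0.0972, with 0.000534 as the lowest of the alternatives) ended this call. Vkorc1, which recycles vitamin K and shares 39.3% of its 31-mers, was at -3.51 (adjusted p = 0.0511), and did not pass. Nqo1, for a quinone reductase, differed widely between the tumours, with 14 and 1651 counts, against 45 and 49 in the normal tables, and did not pass (3.12, adjusted p = 0.474). Vkorc1l1, a paralogue of Vkorc1, was at -2.31 and did not pass either. Lman1 and Mcfd2, which together carry factors V and VIII out of the endoplasmic reticulum, were at -2.74 and -2.45 and did not pass (adjusted p = 0.0778 and 0.0757). The cell surface genes Anxa5 and Gas6 and the cross-linking and cleavage genes Tgm2, F13a1 and Adamts13 did not pass either, with log2 fold changes of -7.91 for Adamts13 to 5.24 for Anxa5.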

How the data were processed

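Libraries were made with the Illumina TruSeq RNA kit from total RNA, per the labels' protocols. The authors deposited 1 table per library with raw, whole-number read counts for each gene symbol. The submitters' processing notes name build mm9 and the tools FastQC, Trimmomatic, TopHat2 2.0.10, HTSeq and DESeq2, without role or order. Strand use in counting is not given in the sources used here. Left out were the 5 lines of each file that name no gene: alignments that were not unique (30.7% to 51.5% of all counts), outside genes (13.6% to 31.5%) or ambiguous (at most 0.107%).

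Groups follow the labels. Tumours were compared with the rounded mean of the normal tables by edgeR 4.0.16 in R 4.3.3 (TMM, filterByExpr with a minimum count of 10, glmQLFit, glmQLFTest, Benjamini-Hochberg adjustment over all genes tested, threshold 0.05). Its 1 residual degree of freedom comes from the tumours, and normal liver is assumed to vary as they do. The common dispersion was 0.442. SE is the log2 fold change over the square root of F. CPM are TMM-scaled. The floor of 3 counts was 0.202 and 0.161 CPM in tumours 1 and 2 and 0.329 CPM in normal liver. Pairs of single libraries were compared by log2 ratio (prior count 2), using genes that reached 10 CPM in either library. Ratio intervals are exact binomial (95%). Exon lengths and 31-mers shared between genes (1 in 16 sampled, over 10% called shared) come from GENCODE M21 on GRCm38, matched for 89.3% of symbols and used for sequence and length only. Promoters are RefSeq's.

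The members, gene lists, tests and motifs were chosen with earlier results of these data known. All 34 members are named. The result for 1 gene of the wider pathway list is not reported here, and the list's counts leave that gene out. Pathway genes are named when past the threshold, and in part beyond that, after their values were seen. Alternatives included other scalings, no filter, DESeq2 1.42.0, each normal table alone or both as separate libraries, omission of genes with shared sequence and omission of each tumour.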

Additional observations from a re-analysis of the deposited data

How the results depend on the processing

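The 22 hepatocyte-made genes called lower were called lower in every tested alternative that kept them, as were Plat and Tfpi2 among the other members in their directions; Cpb2 was also called in 6 of 9. The number of members lower and of hepatocyte-made members lower stayed within 1.5 times. Other counts moved. Without scaling factors, 472 genes of all tested were lower and 635 higher, 4 members higher, 2 vascular members called and 2 pathway list genes lower. Without a filter these were 1383, 903, 4, 3 and 10, with 5 pathway genes higher. DESeq2 gave 1721 genes lower, 1733 higher, 6 members higher, 4 vascular and 4 tissue factor members called, and 10 pathway genes lower and 7 higher. Both normal tables as separate libraries gave 3157, 3058, 6, 5, 4, 11 and 9, with normal tables that share counts. DESeq2 size factors and upper quartile scaling each called 2 vascular members. With either normal table alone, members called higher ranged from 1 to 2 and tissue factor members called from 1 to 2. The log2 fold change of Pros1 turned to 0.95 without scaling factors and that of F13a1 to -0.0217 against the normal wild type table alone. Upper quartile scaling moved the median of all genes by 0.23 and no scaling by 1.37. The cause of these shifts was not tested.

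Omission of a tumour leaves no residual degree of freedom, so it gives values without a test. No paired analysis was possible because the normal tables carry no replicate numbers shared with the tumours. Tumour counts of 0 to 16 for most hepatocyte-made genes leave the size of the falls imprecise, and 1 normal library in effect leaves the spread of normal liver unmeasured.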
